A study of Mus musculus with 16 samples.

Results

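The 10 CXC chemokine genes described here are Cxcl1, Cxcl2, Cxcl5, Cxcl9, Cxcl10, Cxcl11, Cxcl12, Cxcl13, Cxcl14 and Cxcl16, out of 15908 genes tested in mouse liver. They were chosen by gene symbol in the platform annotation, each had 1 probe set, and all 10 passed the filter on dim probe sets. Whole-liver RNA of males was hybridised to 16 Affymetrix whole-transcript arrays, 4 in each of 4 groups. The groups were S534A with 1 mg/kg lipopolysaccharide (LPS), S534A untreated, wild type (WT) with 1 mg/kg LPS and WT untreated. LPS is a bacterial endotoxin sensed by TLR4. S534A mice carry a knock-in in Rela, the gene of the NF-kB subunit p65, that replaces a phosphorylated serine of the transactivation domain by alanine. The line was made in embryonic stem cells, had its selection cassette removed with Flp recombinase, and was backcrossed to C57Bl6/J and bred to homozygosity, so the change is in every cell type. WT mice were C57Bl6/J. No vehicle control appears in the labels. They also leave out age, the interval between LPS and collection, and whether the colony descends from 1 clone. The series text attaches the LPS dose to the untreated S534A group as well, and the sample titles, which call it untreated, were followed. Nothing in the labels ties each sample to an animal of its own. The p-values therefore rest on the spread from sample to sample, and that spread may be technical.

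CXC chemokines are small secreted proteins that steer leukocytes by binding G protein-coupled receptors. Cxcl1, Cxcl2 and Cxcl5 act on Cxcr2 and draw neutrophils. Cxcl9, Cxcl10 and Cxcl11 are induced by interferons and act on Cxcr3 of activated T and NK cells. Cxcl12 is a constitutive product of stromal and endothelial cells that holds Cxcr4-bearing cells in place, Cxcl13 guides B cells through Cxcr5, and the membrane-anchored Cxcl16 binds Cxcr6. The promoters of several of these genes are textbook targets of NF-kB and of interferon-regulated factors.

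The 250 bases before the annotated start are shown for the induced genes with a window and for Cxcl12, which fell, to show where the motifs counted below lie. The sequences are from RefSeq (GRCm38.p6), where 7 of the 10 members were matched. Capitals mark matches, on either strand, to the NF-kB forms GGG, any 3 bases, then TTCC, TCCC or CCCC, to the short form GGGNNTTCC, chosen after the sequences were read, or to the interferon response element, GAAA, any 2 bases, then GAAA. The NF-kB forms can overlap each other. Cxcl1 and Cxcl2 lie on the plus strand at chr5:90890995-90891244 and chr5:90903649-90903898, Cxcl9 and Cxcl10 on the minus strand at chr5:92328080-92328329 and chr5:92348890-92349139, and Cxcl13 and Cxcl12 on the plus strand at chr5:95956689-95956938 and chr6:117168285-117168534.
Cxcl1: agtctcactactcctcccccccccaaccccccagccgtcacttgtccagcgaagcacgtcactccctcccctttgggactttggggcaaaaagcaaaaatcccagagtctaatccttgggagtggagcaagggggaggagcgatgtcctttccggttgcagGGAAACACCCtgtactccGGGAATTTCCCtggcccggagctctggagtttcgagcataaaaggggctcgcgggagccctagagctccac
Cxcl2: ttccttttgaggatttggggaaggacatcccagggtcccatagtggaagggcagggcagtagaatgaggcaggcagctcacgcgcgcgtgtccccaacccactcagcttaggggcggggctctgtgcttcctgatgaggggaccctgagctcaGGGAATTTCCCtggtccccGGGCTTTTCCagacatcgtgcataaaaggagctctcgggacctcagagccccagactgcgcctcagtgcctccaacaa
Cxcl9: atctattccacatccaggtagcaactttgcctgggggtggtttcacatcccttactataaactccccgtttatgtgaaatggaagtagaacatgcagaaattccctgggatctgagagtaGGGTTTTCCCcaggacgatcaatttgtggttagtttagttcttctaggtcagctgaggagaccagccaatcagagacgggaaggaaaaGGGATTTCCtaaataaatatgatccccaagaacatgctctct
Cxcl10: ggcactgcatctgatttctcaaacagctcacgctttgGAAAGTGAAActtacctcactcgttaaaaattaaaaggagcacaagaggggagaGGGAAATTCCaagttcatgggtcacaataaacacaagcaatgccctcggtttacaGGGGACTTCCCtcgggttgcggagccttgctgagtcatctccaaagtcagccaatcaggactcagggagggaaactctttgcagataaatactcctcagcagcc
Cxcl13: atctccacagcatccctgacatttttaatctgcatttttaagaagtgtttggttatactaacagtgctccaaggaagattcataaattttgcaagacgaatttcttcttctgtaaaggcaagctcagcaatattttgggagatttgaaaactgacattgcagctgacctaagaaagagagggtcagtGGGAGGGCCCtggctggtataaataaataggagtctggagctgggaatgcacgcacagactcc
Cxcl12: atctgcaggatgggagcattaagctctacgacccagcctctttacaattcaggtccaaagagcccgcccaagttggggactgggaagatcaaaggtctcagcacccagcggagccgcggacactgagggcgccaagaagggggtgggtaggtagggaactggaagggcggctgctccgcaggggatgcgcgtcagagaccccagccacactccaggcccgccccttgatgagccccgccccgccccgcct

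The windows of Cxcl1 and Cxcl2 shared the run gggaatttccctgg of 14 bases, the longest run common to any pair of the 7 member windows. It begins 71 bases before the start in Cxcl1 and 97 bases before it in Cxcl2. Cxcl10 had NF-kB matches beginning 159, 104 and 103 bases before the start and an interferon response element beginning 213 bases before it. Cxcl9 had an NF-kB match beginning 130 bases before the start and 1 to the short form beginning 42 bases before it. The NF-kB match of Cxcl13 lies on the opposite strand and begins 63 bases before the start. At least 1 of the 3 longer NF-kB forms stood in 5 of the 7 member windows, those of Cxcl1, Cxcl2, Cxcl9, Cxcl10 and Cxcl13, and in 11.6% of all 32817 windows. The short form stood in 2 member windows, Cxcl9 and Cxcl10, and in 4.97% of all windows. The interferon element stood in 2 member windows, Cxcl10 and Cxcl14, and in 2.97% of all. The GAS element TTCNNNGAA stood in the Cxcl14 window and in 7.01% of all windows, and the TATA box letters TATAAA in those of Cxcl9 and Cxcl13 and in 12.4% of all. No searched NF-kB or interferon form was found in the Cxcl12 window. These are matches of letters only.

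All values below are log2 levels after RMA normalization by the authors, and a difference of 1 is a doubling of the signal. Array medians lay between 6.25 and 6.42, and the highest value of an array between 14.37 and 14.54. A principal component analysis placed the 8 LPS-treated and the 8 untreated arrays at opposite ends of its leading axis (78.5% of the variance). Hepatocyte markers identified the tissue, with the mean of 7 of them between 13.49 and 13.61 on every array. Rela differed between S534A and WT by −0.19 ± 0.08 in untreated liver (standard error of limma, adjusted p = 0.486), and a point substitution is not checked by this level. Signal over background was not assessed. Levels of different genes are not compared, since probe sets differ in brightness. A gene was called when its limma p, adjusted by Benjamini-Hochberg over the 15908 genes, lay under 0.05.

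**Figure D1:**
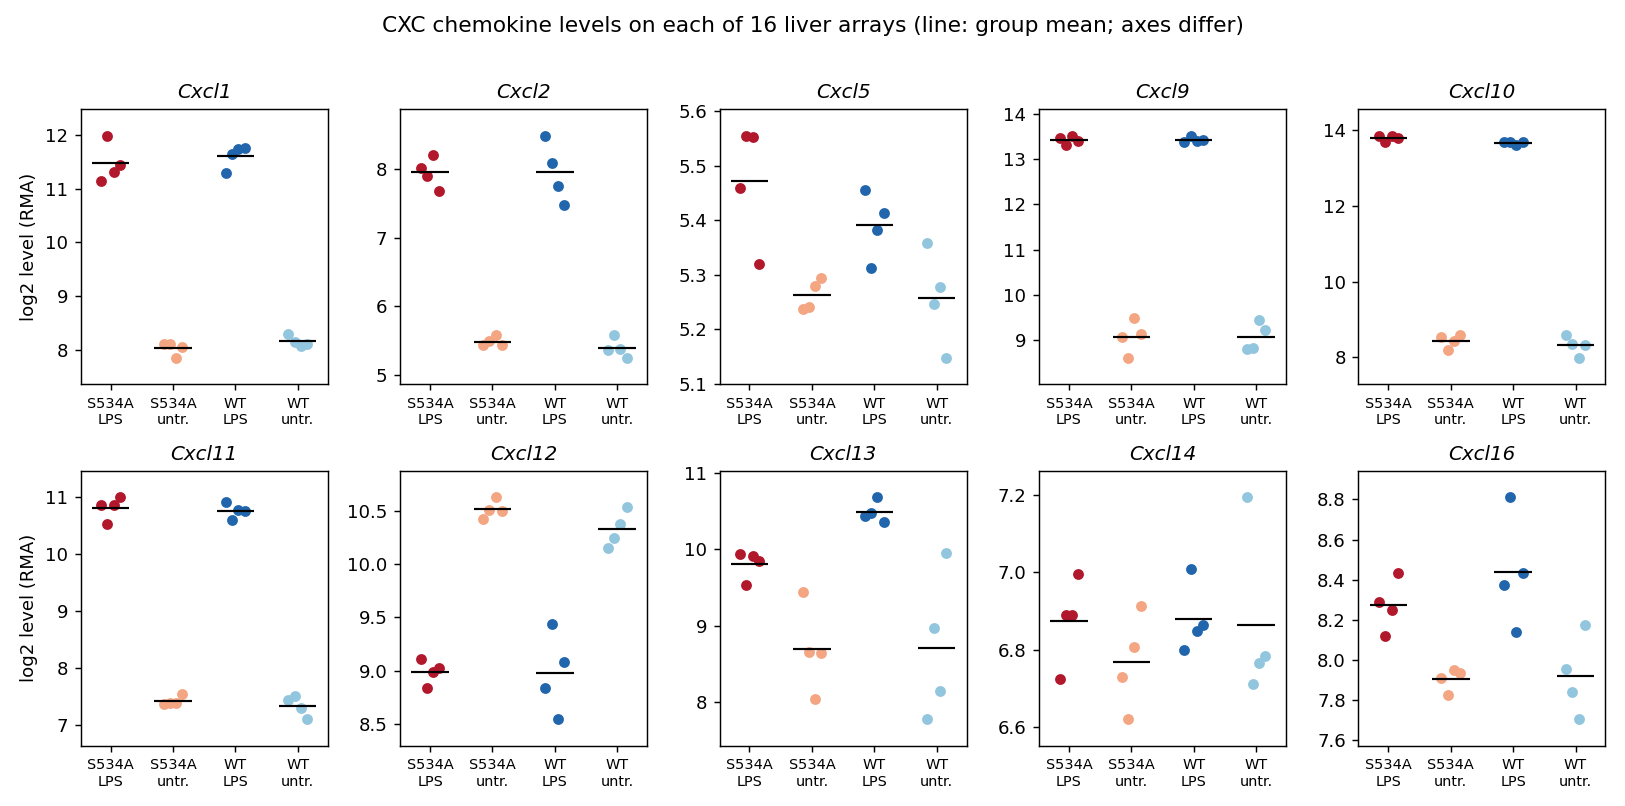
Log2 level (y axis, scale differs by panel) of each CXC chemokine on the 16 arrays, by group (x axis). Points are arrays and lines are means of 4 arrays. LPS-treated and untreated arrays stand apart for Cxcl1, Cxcl2, Cxcl9, Cxcl10, Cxcl11 and Cxcl12, and for Cxcl13 only within each genotype, while the S534A and WT values of a treatment overlap except for Cxcl13 after LPS.

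LPS raised most CXC chemokines in both genotypes and lowered Cxcl12. In S534A livers 9 of the 10 members were called, 8 higher and 1 lower, where 45.4% of all genes were called, 14.2% higher and 31.2% lower. In WT livers 8 were called, 7 higher and 1 lower, against 44.9% of all genes, 14.9% higher and 29.9% lower. The S534A count includes Cxcl5, which passed the filter on dim probe sets only through its LPS-treated arrays, and without it 7 members were called higher there. At least 2-fold rises were called for 6 members in each genotype, against 4.27% of genes in S534A and 4.48% in WT, and a 2-fold fall for 1 member, against 4.26% and 3.68%. The median change of the 10 was 1.80 in S534A and 2.17 in WT, while that of all genes was −0.03 and −0.05. Arrays of the LPS and untreated groups did not overlap for 9 members in S534A (48.1% of all genes) and for 7 in WT (38.3%). The 9 again include Cxcl5, with the same limit from the filter.

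The neutrophil-attracting Cxcl1 rose more than 10-fold. Its level was 11.15, 11.98, 11.30 and 11.45 in LPS-treated S534A livers, against 8.10, 8.11, 7.86 and 8.06 in untreated S534A livers. In WT it was 11.28, 11.64, 11.74 and 11.75 after LPS, against 8.30, 8.15, 8.08 and 8.11 untreated. Every treated array lay far above every untreated array, with S534A array 2 the highest and S534A array 1 the lowest of the treated ones. The rise was 3.44 ± 0.15 in S534A (10.8-fold, limma adjusted p = 6.81e-12) and 3.44 ± 0.15 in WT (10.9-fold, adjusted p = 6.3e-12).

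Cxcl2, which acts on the same receptor, rose over a dim baseline. It stood at 8.02, 7.90, 8.21 and 7.68 in LPS-treated S534A livers, against 5.43, 5.49, 5.57 and 5.43 in untreated ones. WT livers gave 8.49, 8.09, 7.76 and 7.48 after LPS, against 5.35, 5.58, 5.38 and 5.25 untreated. The 4 treated WT arrays were spread over 1.01 log2 units, and still no treated array reached down to an untreated one. The rise was 2.47 ± 0.16 in S534A (5.55-fold, limma adjusted p = 2.25e-09) and 2.57 ± 0.16 in WT (5.92-fold, adjusted p = 1.41e-09). Untreated values lay between the 29.9th and 36.6th percentile of their arrays, next to the 30th percentile that the filter uses, so the size of the rise depends on a baseline whose distance from background is unknown.

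Cxcl5, the remaining Cxcr2 ligand among the 10, stayed dim. Its values were 5.46, 5.56, 5.55 and 5.32 in LPS-treated S534A livers, against 5.24, 5.24, 5.28 and 5.29 in untreated S534A livers. WT values were 5.46, 5.31, 5.38 and 5.41 after LPS, against 5.36, 5.25, 5.28 and 5.15 untreated. Only 6 of the 16 arrays placed it above the 30th percentile, 5 of them LPS-treated, so it passed the filter, which asks for 4 arrays, only through the treated ones. The S534A groups did not overlap and the WT groups did. The difference was 0.21 ± 0.07 in S534A (limma adjusted p = 0.0175) and 0.13 ± 0.07 in WT (adjusted p = 0.126). The S534A call was lost without LPS-treated S534A array 2 (adjusted p = 0.059) or array 3 (0.0589), with median-centred arrays (0.159) and after a second quantile normalization (0.092).

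Cxcl10, the best known interferon-induced chemokine, had the largest change among the members and was the 13th largest rise of all genes in S534A and the 10th in WT. It reached 13.85, 13.69, 13.86 and 13.80 in LPS-treated S534A livers, against 8.54, 8.18, 8.41 and 8.57 in untreated ones. In WT the values were 13.68, 13.69, 13.61 and 13.70 after LPS, against 8.58, 8.34, 7.99 and 8.33 untreated. Treated arrays were close together in both genotypes, within 0.17 in S534A and 0.09 in WT, and near the top of the array's scale. The rise was 5.37 ± 0.11 in S534A (41.5-fold, limma adjusted p = 5.47e-16) and 5.36 ± 0.11 in WT (41.0-fold, adjusted p = 6.1e-16).

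Cxcl9 and Cxcl11, which share the receptor Cxcr3 with Cxcl10, rose as well. Cxcl9 was at 13.47, 13.31, 13.52 and 13.39 in LPS-treated S534A livers, against 9.07, 8.61, 9.48 and 9.14 in untreated S534A livers. WT livers had 13.37, 13.51, 13.40 and 13.41 after LPS, against 8.80, 8.83, 9.45 and 9.22 untreated. The treated arrays varied less than the untreated ones, with a standard deviation (SD) after LPS of 0.09 in S534A and 0.06 in WT, against 0.36 and 0.31 untreated (n = 4 each). The rise of Cxcl9 was 4.35 ± 0.16 in each genotype (20.4-fold, limma adjusted p = 7.06e-13 in S534A and 7.3e-13 in WT).

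Cxcl11 had 10.85, 10.53, 10.85 and 10.99 in LPS-treated S534A livers, against 7.37, 7.40, 7.39 and 7.54 in untreated ones. WT values were 10.91, 10.59, 10.77 and 10.75 after LPS, against 7.45, 7.51, 7.31 and 7.11 untreated. Treated and untreated arrays were far apart in both genotypes. The rise was 3.38 ± 0.10 in S534A (10.4-fold, limma adjusted p = 8.76e-14) and 3.41 ± 0.10 in WT (10.6-fold, adjusted p = 8e-14). RefSeq lists Cxcl11 of the C57BL/6J assembly as a transcribed pseudogene, and the strain is known to make no functional Cxcl11 protein, so these values describe a transcript.

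Cxcl12 was the only member that fell. It stood at 9.11, 8.83, 8.99 and 9.02 in LPS-treated S534A livers, against 10.43, 10.51, 10.63 and 10.50 in untreated S534A livers. WT livers had 8.84, 9.44, 8.54 and 9.08 after LPS, against 10.15, 10.25, 10.38 and 10.53 untreated. The highest treated array, WT array 2, lay below the lowest untreated one. Cxcl12 fell by 1.53 in S534A (standard error 0.14, 2.88-fold, limma adjusted p = 1.52e-07) and by 1.35 in WT (standard error 0.14, 2.55-fold, adjusted p = 6.67e-07). Most markers of the cells that make it fell too: of 9 sinusoidal endothelial markers 7 fell and 2 rose in each genotype, and of 10 stellate cell and fibroblast markers 7 fell and 0 rose. Of all genes 31.2% fell in S534A and 29.9% in WT, and 9 of 11 Kupffer cell markers fell in each genotype. The mean of the endothelial markers was 8.30 to 8.61 in LPS-treated and 9.58 to 9.77 in untreated S534A arrays, and 8.37 to 8.76 in LPS-treated and 9.57 to 9.76 in untreated WT arrays. The stellate mean was 7.88 to 8.10 against 8.66 to 8.83 in S534A and 7.94 to 8.17 against 8.69 to 8.74 in WT. Their part in the fall of Cxcl12 was not tested, and in whole-liver RNA fewer cells of a type and less RNA per cell cannot be told apart.

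Cxcl13, the B cell chemoattractant, rose, and its untreated levels varied most among the members. Its level was 9.95, 9.54, 9.92 and 9.85 in LPS-treated S534A livers, against 9.44, 8.65, 8.04 and 8.64 in untreated ones. In WT livers it was 10.44, 10.48, 10.68 and 10.37 after LPS, against 7.77, 8.97, 8.14 and 9.96 untreated. The groups did not overlap within either genotype, though untreated WT array 4 lay above all 4 LPS-treated S534A arrays. The SD after LPS was 0.19 in S534A and 0.14 in WT, against 0.57 and 0.97 untreated (n = 4 each). The rise was 1.12 ± 0.35 in S534A (2.18-fold, limma adjusted p = 0.0152) and 1.78 ± 0.35 in WT (3.44-fold, adjusted p = 0.000507). In S534A the call was lost without untreated S534A array 3 (0.90, adjusted p = 0.055).

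The untreated arrays with low Cxcl13 were those with a low circadian clock score, taken as the clock output genes Dbp and Tef and the Period genes Per1, Per2 and Per3, averaged, less Arntl. Untreated S534A array 3 had a score of −2.55 with Cxcl13 at 8.04, and untreated WT arrays 1 and 3 had −1.70 and −1.77 with 7.77 and 8.14. The other 5 untreated arrays had scores between 0.96 and 3.47 and Cxcl13 between 8.64 and 9.96. With the score as covariate the rise was 1.25 ± 0.21 in S534A and 1.80 ± 0.21 in WT (limma adjusted p = 8.33e-05 and 1.56e-06). Without those 3 arrays it was 0.90 ± 0.22 in S534A and 1.03 ± 0.25 in WT (limma adjusted p = 0.00348 and 0.00388), and only 2 untreated WT arrays then remained. After LPS the array of lowest score had the highest Cxcl13 in WT (array 3, −0.01 and 10.68) and the lowest in S534A (array 2, −0.70 and 9.54). Per2, Per3 and Tef were themselves called lower after LPS in S534A (limma adjusted p = 0.0254, 0.0217 and 0.0408), and no gene of the score in WT. The covariate is thus not free of the treatment. Whether Cxcl13 follows the clock was not tested.

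**Figure D2:**
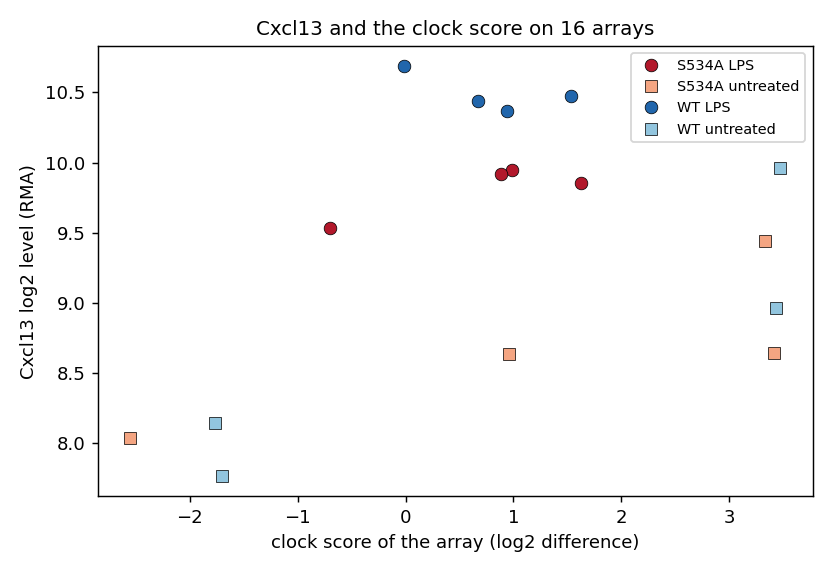
Cxcl13 log2 level (y axis) against the clock score of the array (x axis, log2 difference) for 16 arrays, coloured by group, with circles for LPS-treated and squares for untreated arrays. The 3 untreated arrays with scores below 0 have Cxcl13 between 7.77 and 8.14, and the LPS-treated WT arrays lie above the LPS-treated S534A arrays.

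The last pair of members changed little or not measurably. Cxcl16, a membrane-bound chemokine and scavenger receptor, stood at 8.29, 8.12, 8.25 and 8.43 in LPS-treated S534A livers, against 7.91, 7.82, 7.95 and 7.93 in untreated S534A livers. WT values were 8.37, 8.81, 8.14 and 8.44 after LPS, against 7.95, 7.84, 7.70 and 8.17 untreated. Treated WT array 3 lay below untreated WT array 4, while the S534A groups did not overlap. Cxcl16 rose by 0.37 ± 0.12 in S534A (1.29-fold, limma adjusted p = 0.0202) and by 0.52 ± 0.12 in WT (1.44-fold, adjusted p = 0.00205). The S534A call was lost without LPS-treated S534A array 4 (adjusted p = 0.068) or untreated S534A array 2 (0.053) and with median-centred arrays (0.0946).

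Cxcl14, which epithelial cells express constitutively, had 6.72, 6.89, 6.89 and 7.0 in LPS-treated S534A livers, against 6.73, 6.62, 6.81 and 6.91 in untreated ones. In WT it had 6.80, 7.01, 6.85 and 6.86 after LPS, against 7.19, 6.71, 6.77 and 6.78 untreated. All 4 groups overlapped. The difference was 0.11 ± 0.10 in S534A (95% interval −0.11 to 0.32, limma adjusted p = 0.419) and 0.02 ± 0.10 in WT (−0.20 to 0.23, adjusted p = 0.921).

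**Figure D3:**
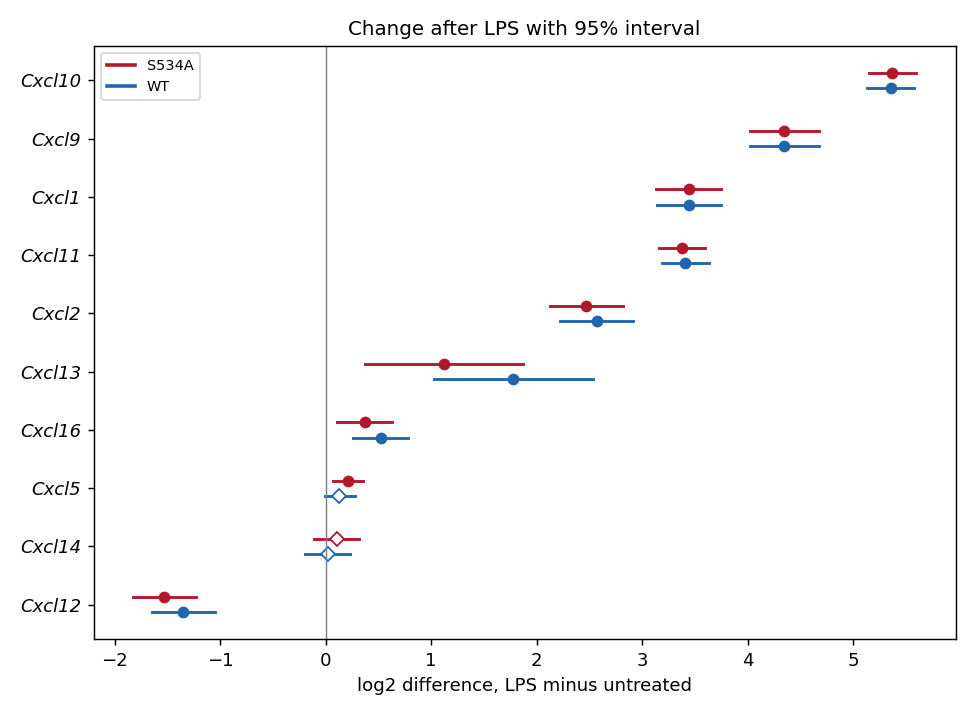
Log2 difference between LPS-treated and untreated livers (x axis) for each CXC chemokine (y axis, ordered by the WT change), in S534A (red, upper line) and WT (blue, lower line). Lines are 95% intervals of the limma fit, filled circles passed the adjusted p threshold and open diamonds did not. The changes run from −1.53 for Cxcl12 in S534A to 5.37 for Cxcl10 in S534A, and the intervals of the genotypes overlap for each gene.

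Neighbouring genes on chromosome 5 did not all move together. In the RefSeq order of 7 adjacent genes from Cxcl5 through Ppbp, Pf4, Cxcl3, Cxcl15 and Cxcl1 to Cxcl2, the rises of more than 2-fold were those of Cxcl1 and Cxcl2 at one end. Ppbp and Pf4, chemokines stored in platelets, lie between Cxcl5 and Cxcl3. Ppbp had 8.58, 8.37, 8.01 and 8.23 in LPS-treated S534A livers, against 7.39, 7.72, 7.60 and 7.55 untreated, and it rose by 0.73 ± 0.16 in S534A and 0.75 ± 0.16 in WT (limma adjusted p = 0.00109 and 0.000887). Pf4 rose by 0.25 ± 0.07 in S534A (limma adjusted p = 0.00828) and stood at 0.13 ± 0.07 in WT (adjusted p = 0.155). Cxcl3, a close relative of Cxcl1 and Cxcl2, stayed between 5.38 and 5.70 in LPS-treated and between 5.37 and 5.51 in untreated S534A livers, with differences of 0.14 ± 0.08 in S534A (limma adjusted p = 0.167) and 0.09 ± 0.08 in WT (adjusted p = 0.425). Cxcl15, known as a lung chemokine, did not pass the filter and ran from 4.55 to 4.93 over all arrays. Whether probes of these related genes bind each other's transcripts was not tested.

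In the second stretch the 4 genes stand in the order Cxcl9, Art3, Cxcl10 and Cxcl11. Art3, an ADP-ribosyltransferase gene chosen here for its position after its values were seen, differed by −0.14 ± 0.08 in S534A (limma adjusted p = 0.181) and 0.07 ± 0.08 in WT (adjusted p = 0.537), while its 3 chemokine neighbours rose by 3.38 or more. Cxcl17, the other listed CXC ligand that passed the filter, lies elsewhere and differed by 0.06 ± 0.11 in S534A and −0.03 ± 0.11 in WT (limma adjusted p = 0.707 and 0.869). Of the 4 tested ligands outside the 10, 2 thus rose in S534A and 1 in WT, where 14.2% and 14.9% of all genes did.

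**Figure D4:**
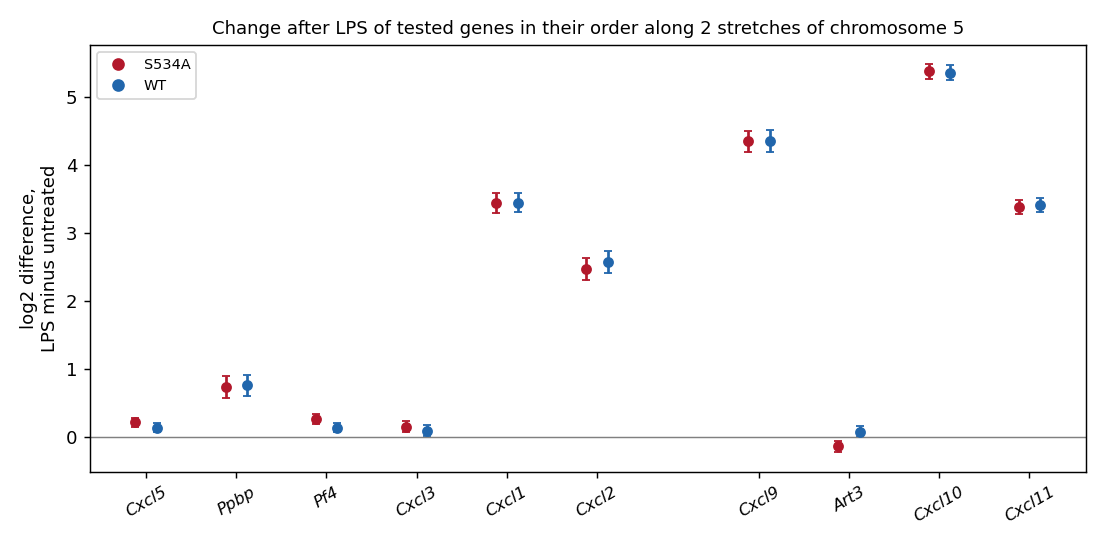
Log2 difference between LPS-treated and untreated livers (y axis) for the tested genes of 2 stretches of chromosome 5, in their RefSeq order (x axis, not to scale), in S534A (red) and WT (blue). Bars are standard errors of the limma fit. Cxcl1, Cxcl2, Cxcl9, Cxcl10 and Cxcl11 lie above 2, and Cxcl5, Ppbp, Pf4, Cxcl3 and Art3 lie below 1.

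Among the receptors, that of the neutrophil chemokines rose and that of Cxcl9, Cxcl10 and Cxcl11 was not called. Cxcr2 had 7.57, 7.60, 7.54 and 7.81 in LPS-treated S534A livers, against 5.63, 5.60, 5.33 and 5.52 untreated, and 7.29, 8.34, 7.61 and 7.66 in LPS-treated WT livers, against 5.14, 5.30, 5.35 and 5.45 untreated. It rose by 2.11 ± 0.16 in S534A and 2.42 ± 0.16 in WT (limma adjusted p = 1.17e-08 and 2.16e-09). Ackr1, an atypical receptor that binds inflammatory chemokines without signalling, rose by 1.45 ± 0.15 in S534A and 1.83 ± 0.15 in WT (adjusted p = 6.02e-07 and 3.9e-08). Cxcr3 differed by −0.04 ± 0.12 in S534A and −0.11 ± 0.12 in WT (adjusted p = 0.815 and 0.550), and Cxcr4 by 0.01 ± 0.10 and 0.03 ± 0.10 (adjusted p = 0.946 and 0.862). In all, 3 of 7 tested receptors rose and 0 fell in each genotype, the third being Cxcr1 in S534A (0.21 ± 0.07, adjusted p = 0.0284) and Ackr3 in WT (0.24 ± 0.09, adjusted p = 0.0478). Among all genes the shares were 14.2% higher and 31.2% lower in S534A, and 14.9% and 29.9% in WT. Cxcr6 differed by −0.21 ± 0.10 in S534A and −0.20 ± 0.10 in WT (adjusted p = 0.112 and 0.128), and Cxcr5 did not pass the filter.

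Markers of leukocytes moved in both directions, where 14.2% of all genes rose and 31.2% fell in S534A, and 14.9% and 29.9% in WT. Of 12 neutrophil markers, a list that includes Cxcr2, 11 rose and 0 fell in each genotype, with a mean of 7.75 to 8.08 in LPS-treated and 5.93 to 6.04 in untreated S534A arrays, and 7.70 to 8.21 and 5.88 to 6.08 in WT arrays. The 11 include Mmp8 and Ly6g, which at 5.25 or less untreated passed the filter only through LPS-treated arrays. Counts and means also include Lcn2, the largest rise on the list (4.77 in S534A and 4.30 in WT). Which cells gave its signal was not tested. S100a9, an abundant neutrophil protein, rose by 2.87 ± 0.18 in S534A and 2.92 ± 0.18 in WT (limma adjusted p = 9.26e-10 and 7.54e-10). Of 6 tested T and NK cell markers 1 rose and 0 fell in S534A, and 1 rose and 1 fell in WT, with rises near the share of all genes. The granule protease Gzmb rose by 1.13 ± 0.15 in S534A and 1.17 ± 0.15 in WT (limma adjusted p = 9.53e-06 and 6.25e-06). The helper T cell coreceptor Cd4 fell by 0.32 (standard error 0.11) in WT (adjusted p = 0.03) and differed by −0.22 ± 0.11 in S534A (adjusted p = 0.121), and the T cell receptor component Cd3e differed by −0.22 ± 0.10 and −0.15 ± 0.10 (adjusted p = 0.0724 and 0.239). Of 3 tested B cell markers 2 fell in each genotype, Cd79b by 0.96 (standard error 0.11) in S534A and by 0.91 (standard error 0.11) in WT (adjusted p = 1.22e-06 and 2.14e-06). Of 11 Kupffer cell markers 9 fell and 1 rose in each genotype. Their part in the chemokine changes was not tested.

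Genes that induce or process CXC chemokines changed in both directions. Of 17 tested inducers and their transcription factors 14 rose and 1 fell in S534A, and 13 rose and 1 fell in WT, with medians of 1.33 and 1.28. Both counts include Il6, which at 4.71 or less untreated passed the filter only through LPS-treated arrays. Of all genes 14.2% rose and 31.2% fell in S534A, and 14.9% and 29.9% in WT. The cytokines Tnf (2.20 ± 0.16 in S534A, 2.52 ± 0.16 in WT) and Il1b (2.49 ± 0.14 and 2.66 ± 0.14), which switch on Cxcl1 and Cxcl2, rose. The interferon-response factors Irf7 (2.76 ± 0.13 and 2.53 ± 0.13) and Irf1 (1.79 ± 0.15 and 1.23 ± 0.15) rose as well, with limma adjusted p of 2.69e-06 or less for each of these 4 genes. Ifng, which drives Cxcl9, rose by 0.40 ± 0.09 in S534A (limma adjusted p = 0.00120) and stood at 0.17 ± 0.09 in WT (adjusted p = 0.146), a difference between genotypes that the interaction did not call. Of 8 processing enzymes 3 rose and 3 fell in each genotype. The 3 rises include Mmp8, which passed the filter only through LPS-treated arrays. The falls were near the share of all genes. Dpp4, which trims Cxcl9, Cxcl10, Cxcl11 and Cxcl12, fell by 0.74 (standard error 0.10) in S534A and by 0.48 (standard error 0.10) in WT (adjusted p = 1.03e-05 and 0.000693). Adam17, which sheds membrane proteins, rose by 0.62 ± 0.07 and 0.72 ± 0.07 (adjusted p = 3.06e-06 and 6.6e-07), and Adam10, which releases Cxcl16, fell by 0.77 (standard error 0.13) and 0.53 (standard error 0.13; adjusted p = 7.76e-05 and 0.00209).

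The question in the series title, whether the S534A substitution alters the response to LPS, was put to each chemokine by comparing the genotypes after LPS, without treatment and in the interaction. None of the 10 members was called in any of the 3, by the main limma fit or by its trended and robust form. In the main fit 0 had an unadjusted p under 0.05. For Cxcl13 after LPS this rests on a standard error of 0.35, shared with the untreated arrays. Fitted on the 2 LPS-treated groups alone that error was 0.11, so the count of 0 need not hold there. Of all genes 0% were called after LPS, 0.0126% without treatment and 0% in the interaction, while 3% (477 genes), 8.88% (1412) and 4.82% (766) had an unadjusted p under 0.05. After LPS the differences between S534A and WT ran from −0.68 for Cxcl13 to 0.13 for Cxcl10, and without treatment from −0.13 for Cxcl1 to 0.19 for Cxcl12.

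For the strongly induced members the differences between genotypes were small beside the rise after LPS. Treated Cxcl9 and Cxcl10 lay at the 99.6th to 99.9th percentile of their arrays, where any compression of the signal was not assessed, so their intervals hold for the array signal and need not bound a difference in transcript. After LPS, S534A minus WT was −0.13 for Cxcl1 (95% interval −0.44 to 0.17), 0.00 for Cxcl2 (−0.35 to 0.34), 0.00 for Cxcl9 (−0.33 to 0.33), 0.13 for Cxcl10 (−0.09 to 0.36) and 0.05 for Cxcl11 (−0.17 to 0.27). In the interaction, which sets the S534A response to LPS against the WT response, they stood at −0.01 (−0.44 to 0.43), −0.10 (−0.58 to 0.39), 0.00 (−0.47 to 0.47), 0.02 (−0.30 to 0.34) and −0.03 (−0.34 to 0.28), in the same order. Cxcl12 had an interaction of −0.18 (−0.60 to 0.25), Cxcl16 of −0.15 (−0.52 to 0.21), Cxcl14 of 0.09 (−0.21 to 0.39) and Cxcl5 of 0.08 (−0.13 to 0.28). Limma's adjusted p was 0.951 or more for every interaction.

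Cxcl13 had the widest genotype difference after LPS. The 4 S534A arrays ran from 9.54 to 9.95 and the 4 WT arrays from 10.37 to 10.68, so the groups did not overlap, which was so for 1 of 10 members and 2.03% of all genes. The difference was −0.68 ± 0.35 (95% interval −1.43 to 0.07, limma adjusted p = 1), the 14th lowest of 15908 genes. This standard error is shared with the untreated arrays, where Cxcl13 varied widely. Fitted on the 2 LPS-treated groups alone the standard error was 0.11, with a limma adjusted p of 0.818, and over all alternatives the adjusted p lay between 0.818 and 1. With the clock score as covariate the difference was −0.66 ± 0.21 (limma adjusted p = 0.966). The interaction was −0.66 ± 0.50 (−1.72 to 0.40, limma adjusted p = 0.951). Of the 11 Kupffer cell markers 0 were called between the genotypes after LPS, with differences from −0.48 to −0.04, and the 3 B cell markers lay between −0.07 and 0.03. Without treatment Cxcl13 differed by −0.02 ± 0.35 (−0.77 to 0.73), and 0 of the 10 members had groups that did not overlap, against 5.69% of all genes. The interaction and the untreated difference of Cxcl13 depended on which untreated arrays were used. Without untreated WT array 4 the interaction was −1.08 ± 0.37 and the untreated difference 0.40 ± 0.27 (limma adjusted p = 0.497 and 0.554), and with array quality weights they were −1.03 ± 0.35 and 0.39 ± 0.25 (adjusted p = 0.247 and 0.386). Without untreated WT array 1 they were −0.35 ± 0.45 and −0.33 ± 0.33 (adjusted p = 1 and 0.998), and without untreated S534A array 1 −0.41 ± 0.48 and −0.27 ± 0.35 (adjusted p = 0.999 and 0.997). Without the 3 untreated arrays of low clock score they were −0.12 ± 0.33 and −0.55 ± 0.26 (adjusted p = 1 and 0.715). The difference after LPS ran from −0.72 to −0.59 over all alternatives and was never called.

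**Figure D5:**
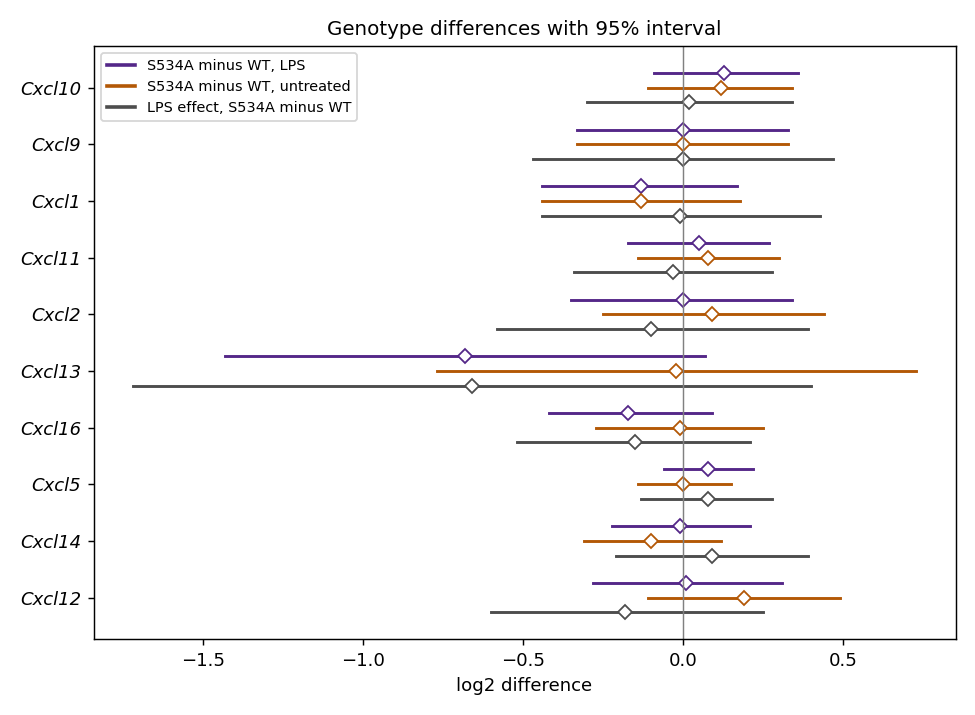
Log2 differences (x axis) for each CXC chemokine (y axis) between S534A and WT after LPS (purple), between S534A and WT without treatment (orange) and of the LPS effect, S534A minus WT (grey). Lines are 95% intervals of the limma fit and open diamonds did not pass the threshold. Every interval holds 0, and Cxcl13 after LPS, at −0.68, lies farthest from it.

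The genes whose profile over the 16 arrays was most like that of each member were found by the root mean square difference after each gene was centred on its own mean. For Cxcl10 they were Slfn4 (0.18 log2 units), the chemokine Ccl3 (0.20) and the antiviral Ifit1 (0.22), set against an SD of Cxcl10 over arrays of 2.78. For Cxcl9 they were the monocyte chemoattractant Ccl2 (0.16) and the guanylate-binding proteins Gbp9 (0.21) and Gbp4 (0.23), with an SD of 2.26. Cxcl1 was nearest to Oasl2, the NF-kB inhibitor Tnfaip3 and Isg20 (0.25 each), with an SD of 1.79, and Cxcl2 to Ifih1, Nos1ap and Katna1 (0.22 each, SD 1.32). Cxcl11 was nearest to Tead1, the RNA sensor Tlr3 and Samhd1 (0.17 each, SD 1.76). The falling Cxcl12 was nearest to the desmosomal gene Dsp (0.11), Fgd4 (0.14) and Nt5dc2 (0.15), with an SD of 0.77. The nearest genes of Cxcl13 were Sp140 (0.32), Apbb3 (0.36) and Taf4b (0.39), the largest distances among the members, beside an SD of 0.94. Cxcl16 was nearest to Gins1 (0.09), the leukocyte integrin Itgb2 (0.10) and Plekha2 (0.10), with an SD of 0.29. The flat profiles of Cxcl5 (SD 0.12) and Cxcl14 (SD 0.14) had their nearest genes at 0.05 (Ctcfl) and 0.08 (Tceanc). No member was among the 3 nearest of another.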

How the data were processed

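The authors deposited log2 values of 35556 probe sets on 16 arrays, made with RMA per the submitters' processing notes, which give no version or summary level. Symbols came from the platform annotation, where 21789 probe sets had 1 symbol, 1621 several and 12146 none. By gene identifier 21698 matched RefSeq GRCm38.p6, and 0 symbols changed. A probe set was kept when above the 30th percentile of its array on at least 4 arrays (26037 were), and each gene was represented by its brightest probe set on average, for 15908 genes. Limma 3.58.1 in R 4.3.3 fitted 4 group means (12 residual degrees of freedom, prior 4.28), with 5 two-sided contrasts and Benjamini-Hochberg adjustment. Fits were tested on simulated data. Errors after ± are standard errors unless SD is written. The number of arrays limits the precision. Figures used Python 3.11.15 and matplotlib 3.10.9.

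The members and lists were chosen with earlier results of these data known. All 10 members were to be named in every comparison, with the 3 genes of nearest profile, predicted-gene, clone and small RNA symbols passed over. Lists covered other CXC ligands, receptors, processing enzymes, inducers and markers of 9 cell types. Same-numbered arrays were not taken as pairs. Their deviations from group means correlated from −0.49 to 0.59, above 0.1 in 9 of 24 pairs, and those of other numbers from −0.59 to 0.57, above 0.1 in 21 of 72.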

Additional observations from a re-analysis of the deposited data

Results flagged for a closer look

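In 3 of the 40 groups of 4 arrays (10 genes in 4 groups) a single array stood apart from the other 3, where chance gives about 1 in 20. The gap to the nearest array was divided by the range of the group and set against Dixon's critical value. Cxcl10 in LPS-treated WT array 3 was at 13.61, with the others between 13.68 and 13.70 (0.839). Cxcl11 in untreated S534A array 4 was at 7.54, with the others between 7.37 and 7.40 (0.836). Cxcl14 in untreated WT array 1 was at 7.19, with the others between 6.71 and 6.78 (0.848).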

How the results depend on the processing

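Every member was refitted under up to 30 alternatives. For the LPS change in WT, 298 of 299 values kept their side of the threshold, with 7 changes of sign among uncalled values. In S534A 286 of 299 did, with 0 changes of sign. In the genotype comparisons and the interaction all values stayed uncalled, with 20, 23 and 38 changes of sign among values near 0. No called value changed sign. Cxcl5, Cxcl13 and Cxcl16 in S534A lost their call at an adjusted p threshold of 0.01, which left 5 members called higher there, against 8 at 0.05. A 1.5-fold minimum dropped Cxcl16 in both genotypes and Cxcl5 in S534A. Centring arrays on their medians shifted the median change of all genes by −0.10 in both LPS comparisons, left 6 members called higher in S534A and 7 in WT, and put the share of called genes that were higher at 21.5% in S534A and 22.1% in WT, against 31.3% and 33.3% as deposited. The replicate numbers were not taken as pairs, and with a replicate block 8 members were called higher in S534A and 7 in WT, with no member's call changed. Signal over background was not assessed, which bears most on the dim Cxcl2 and Cxcl5.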
